A study of Mus musculus with 2 samples.

Results

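The mixed spots were the 86 spots of section 1 that held both a collagen signal of stroma and a neural signal at intermediate collagen levels, out of 3406 spots under tissue in that section and 7423 in the series. A spot is a small region of the slide that can hold several cells, or parts of cells, of different types, and its transcripts are counted as unique molecular identifiers (UMIs). Counts were expressed as CPM, the UMIs of a gene per 1000000 UMIs of the spot or of a summed group of spots. A spot entered when it had at least 2000 UMIs, a summed Col1a1 and Col3a1 level of 2000 to 10000 CPM, a summed Mbp and Snap25 level of at least 1000 CPM and an Arg1 level under 1000 CPM. The 2 ends of the comparison were 801 spots with Col1a1 and Col3a1 at 10000 CPM or more (the collagen end) and 2085 spots under 1000 CPM (the low-collagen end), all of at least 2000 UMIs.

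The series profiled 2 sections of mouse cerebellum carrying transplanted breast tumor organoids with a probe-based spatial assay on formalin-fixed, paraffin-embedded tissue. Both sections were labelled genotype HP and untreated, section 1 as HP-F1 +cre and section 2 as HP-B6 +cre, and both as B6-HP organoids. HP organoids come from mammary tumors of mice with an activating human HER2 transgene behind a floxed stop, driven by an actin promoter and switched on by Cre delivered in adenovirus, together with an activating PIK3CA mutation. The organoid cells were injected directly into the cerebellum, and section 1 is 1 tissue section, so that spots were not replicates and no test between conditions was possible. The same rule found 2 spots in section 2, where no spot reached the collagen end, and that section gave no comparison. Intervals below are 95% intervals that cover counting error in the summed UMIs only.

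The edge between a brain metastasis and the surrounding tissue is the zone where tumor cells, fibroblast matrix, blood vessels, infiltrating macrophages, resident microglia, reactive astrocytes and damaged axons meet. Microglia and macrophages that clear myelin and dead cells typically switch on lysosomal proteases and lipid-handling genes, and astrocytes that respond to injury raise Gfap and acute phase genes. In the cerebellum, the neural side consists of granule and Purkinje neurons, Bergmann glia and the myelinating oligodendrocytes of the white matter.

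The mixed spots formed a narrow band along the border between the collagen-rich area and the low-collagen tissue. Of the 86 spots, 72 lay within 5 array steps of a collagen-end spot, 25 of them in direct contact and 28 at 2 steps. The other 14 lay 8 to 34 steps away, along the opposite tissue edge and a gap in the tissue, and held 3.78% of the UMIs of the mixed spots. The spots fell into 21 connected groups of 1 to 17 spots, with 64 spots in the 7 groups of 5 or more. Of the 480 contacts that the mixed spots made with neighbouring spots, 43.75% were with other mixed spots, 23.75% with spots at 1000 to 2000 CPM of collagen, 11.9% with the low-collagen end, 9.38% with the collagen end and 9.17% with Arg1-high spots. Only 4 mixed spots touched both ends.

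**Figure D1:**
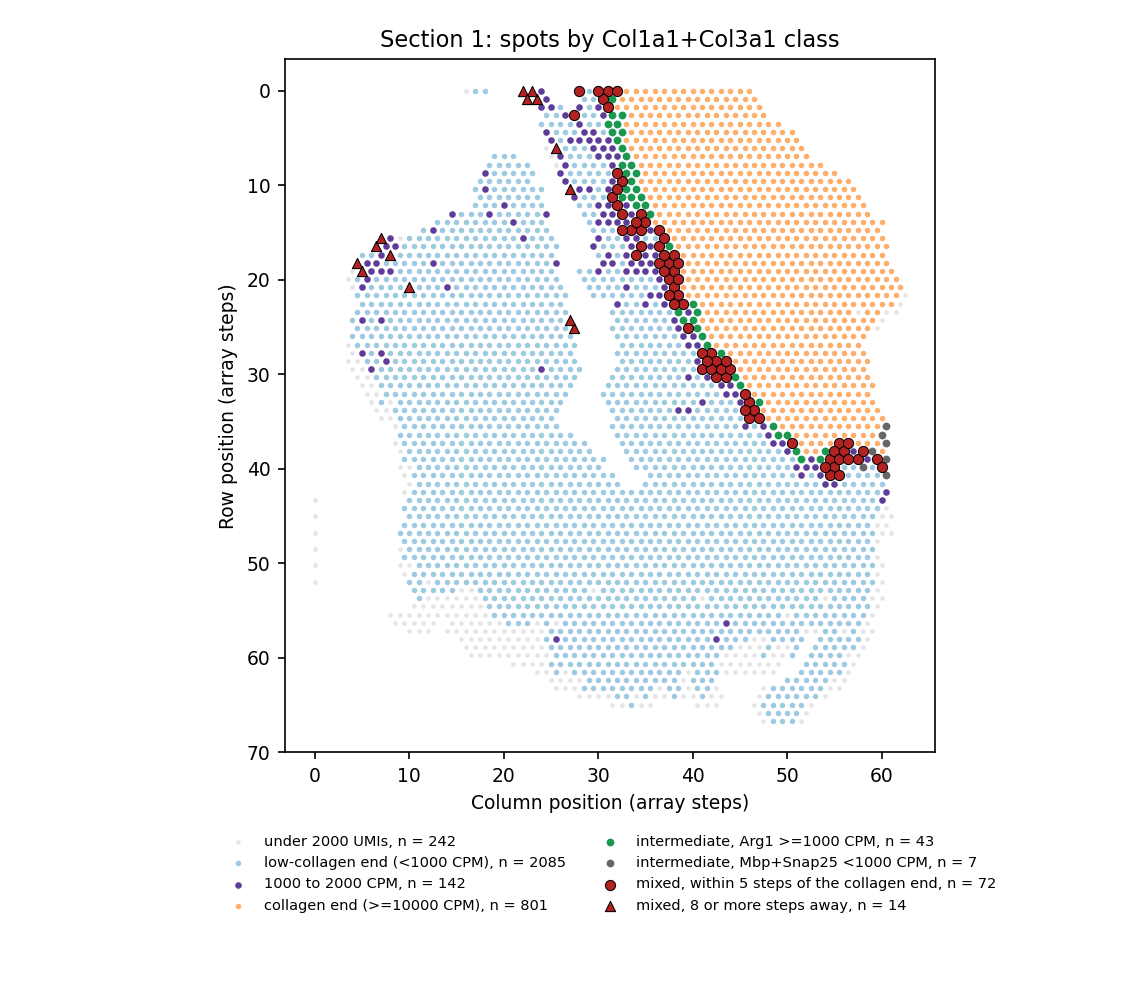
Position of each spot of section 1 in array steps (x, column; y, row), coloured by its Col1a1 and Col3a1 class. Large red circles mark the 72 mixed spots within 5 steps of the collagen end, which line its border, and red triangles mark the 14 mixed spots that lay 8 or more steps away.

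The values that chose the spots are given as a description. Summed Col1a1 and Col3a1, the fibril-forming collagens, ran from 2013 to 9666 CPM with a median of 3396 CPM, on a lowest of 6, a median of 56.5 and a highest of 251 collagen UMIs per spot. The spots just outside these bounds had 1999 and 11074 CPM. Summed Mbp and Snap25, which encode a myelin protein and a synaptic vesicle fusion protein, ran from 1161 to 32219 CPM with a median of 4260.1 CPM, and the nearest excluded spot had 741 CPM. Arg1, the arginase made by a subset of macrophages, ran from 0 to 957 CPM with a median of 447 CPM, and the nearest excluded spot had 1012 CPM. The Arg1 limit removed 43 of the 136 spots in the collagen range and the neural limit removed 7.

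Sequencing depth in the mixed spots lay between that of the ends. Total UMIs per spot ranged from 2311 to 38308 with a median of 16736.5 in the mixed spots, against medians of 53385 at the collagen end and 7863 at the low-collagen end. The distant spots were the shallow ones, with a median of 3400.5 UMIs against 18560.0 in the spots near the collagen end. Summed over spots, the levels below rest on 1433775 UMIs for the mixed spots, 41133951 for the collagen end and 18714832 for the low-collagen end. In summed spots, fewer cells of a type and less RNA per cell cannot be told apart. The ends were not free of each other's genes, since 78 collagen-end spots had at least 1000 CPM of Mbp and Snap25.

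The share of the collagen end in the mixed spots depended on which genes were used to measure it. A mixture of both ends was fitted to all genes except those of the rule. It put the collagen end at 54.6% (54.4 to 54.8%) of the UMIs of the summed mixed spots, and the Mbp and Snap25 level gave 56.4%. These are shares of UMIs and not of area or cells, since collagen-end spots held more UMIs (median 53385 against 7863 at the low-collagen end). The Col1a1 and Col3a1 level gave 12.7%, and the rule itself bounded that value. The rule also set a minimum on the Mbp and Snap25 level, so the 56.4% is no independent check of the fitted share. In single spots the share over all genes ran from 0% to 87.6% with a median of 54.8%, and the share from the collagens ran from 5.44% to 29.3% with a median of 9.76%. The first exceeded the second in 77 of 86 spots. The spots near the collagen end had a median share of 56.7% over all genes, whereas the 14 distant spots had a median of 8.92%, so the spots that met the collagen rule far from the border otherwise had profiles like the low-collagen tissue.

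Most genes of collagen fibrils were below the mixture, while other stromal lists were divided. The rule capped Col1a1 and Col3a1 in the mixed spots, so genes that vary with them could be low against the mixture through selection. The fibrillar levels here are therefore a description. Of 19 measured genes of fibrillar and fibril-linked matrix with at least 50 UMIs in the mixed spots, 17 were below the fitted mixture by 1.5-fold or more. Col1a2, the partner chain of Col1a1, was at 2304 CPM in the mixed spots, 18078 CPM at the collagen end and 158 CPM at the low-collagen end. Lum, a small proteoglycan of collagen fibrils, was at 80.2 CPM against 1795 CPM at the collagen end, 0.0812 times the fitted mixture (0.0671 to 0.0975). S100a4, a fibroblast and leukocyte marker, was at 158 CPM against 1279 CPM. Loxl2, a collagen crosslinking enzyme, was the fibrillar list's member above both ends, at 3.36 times the higher end and 1.31 times the higher nearby end. Of 9 cancer-associated fibroblast genes, the list that holds S100a4, 6 were below the mixture, while Pdpn, a mucin-like membrane protein, and Tagln, an actin-binding protein, were above both ends at 2.51 and 2.49 times the higher end. Neither was above both nearby ends, with Pdpn at 1.11 times the higher one. Of 10 basement membrane genes, 3 were below the mixture and none above it. The 17 measured members summed to 927 CPM, 55.9% of the collagen end. Calls below the mixture rest on the fitted share of 54.6%. At the share of 12.7% from Col1a1 and Col3a1, the basement membrane sum would lie above the expected level.

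Most genes in the mixed spots followed the mixture. Of 7031 genes with at least 50 UMIs, 82.9% were within 1.5-fold of the fitted level, and the median log2 ratio to the mixture was 0.02. Above the mixture by at least 1.5-fold, with the interval of the ratio above 1, were 696 genes (9.9%), and below it were 508 genes (7.23%). A stricter question was which genes stood above both ends, a level that no mixing of these 2 ends gives. By at least 1.5-fold over the higher end, 245 genes (3.48% of those tested) were above both ends, and 16 (0.228%) were below both ends by the same fold. The collagen end was the higher one for 150 of the 245 genes and the low-collagen end for 95. At least 2-fold over the higher end were 101 genes (1.44%), and at least 3-fold were 39 (0.555%). Of the 245 genes, 185 were over the level of the higher end in at least 43 of the 86 single spots.

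The minimum of 50 UMIs in the mixed spots favours genes that are high there. With a minimum on the mean CPM over the 3 classes in its place, 176 genes of 7104 were above both ends and 40 below. Scaling mattered for the balance of calls. With TMM factors, which assume that most genes do not differ, 146 genes (2.08%) were above both ends and 95 (1.35%) below, a share of 60.6% above among the calls in place of 93.9%. The median log2 ratio over the higher end moved by −0.22 under that scaling. All 20 genes with the largest ratios were also above both ends under it. The scaling multiplies every ratio over a given end by the same constant, so ratios of 3.39 or more could not lose the call. Their result is therefore no check.

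**Figure D2:**
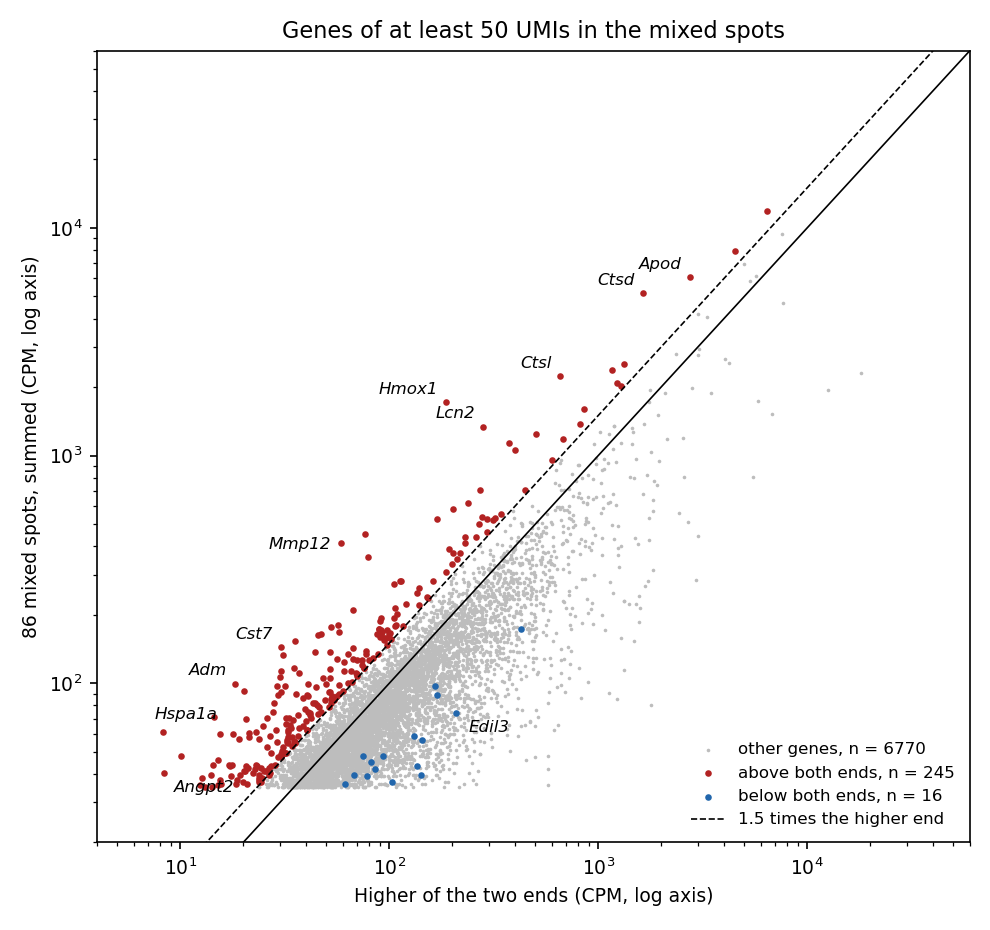
Summed CPM of each of 7031 genes in the mixed spots (y, log axis) against the higher of the 2 ends (x, log axis). The solid line marks equality and the dashed line a ratio of 1.5. The 245 red genes lie above both ends, led by Hmox1 at 1719 CPM against 187 CPM, and the 16 blue genes lie below both.

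The gene with the largest ratio was Hmox1, heme oxygenase, which breaks down heme from red cells and is induced by oxidative stress. Hmox1 in single mixed spots ran from 0 to 5516 CPM with a median of 1364 CPM, and 71 of 86 spots were over the level of the higher end. Summed, it was at 1719 CPM in the mixed spots, 187 CPM at the collagen end and 134 CPM at the low-collagen end, a ratio of 9.17 over the higher end (8.76 to 9.60). The distributions overlapped, since 4.62% of collagen-end spots and 1.34% of low-collagen spots reached the summed mixed level. In the distant mixed spots Hmox1 was at 92.2 CPM against 1783 CPM in those near the collagen end.

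The secreted proteases Mmp12 and Klk8 were among the leading genes, while the list of matrix proteases and inhibitors that holds Mmp12 was divided. Mmp12, the macrophage elastase, ran from 0 to 1812 CPM per mixed spot with a median of 210 CPM, and summed to 414 CPM against 59.0 CPM at the collagen end and 30.7 CPM at the low-collagen end, a ratio of 7.02 (6.41 to 7.69). Klk8, a serine protease of neurons, was at 71.1 CPM, 4.89 times the higher end (3.86 to 6.17). Mmp12 exceeded the higher end in 56 of 86 mixed spots. Of 16 tested genes of matrix proteases and inhibitors, 4 were above both ends, 6 above the mixture and 5 below it. The 19 measured members summed to 3335 CPM in the mixed spots, 7019 CPM at the collagen end and 803 CPM at the low-collagen end. That sum was over the higher end in 0 of 86 mixed spots.

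Other genes among the 20 with the largest ratios fell into a few known roles. Hspa1a (7.46 times the higher end), Atf3 (3.54), Ier3 (4.31) and Gdf15 (4.76) are induced by heat, protein or other cell stress. Adm (5.46), a vasodilator peptide, and Ndufa4l2 (3.87), a mitochondrial subunit, are induced by low oxygen, and Angpt2 (4.85) is the ligand that loosens vessel walls. Cst7 (4.75), Lpl (4.35), Ctsl (3.39) and Ccl6 (4.53) belong to activated phagocytes, as a cathepsin inhibitor, a lipase, a lysosomal protease and a chemokine. Lcn2 (4.75) is an iron-binding acute phase protein, and Hbegf (3.77) is a growth factor of the EGF family. Plac8 (3.48), Rasl11a (4.62) and Tgm1 (3.58), a transglutaminase, were also among the 20. The summed levels of the 20 genes lay between 40.5 CPM for Angpt2 and 2231 CPM for Ctsl.

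**Figure D3:**
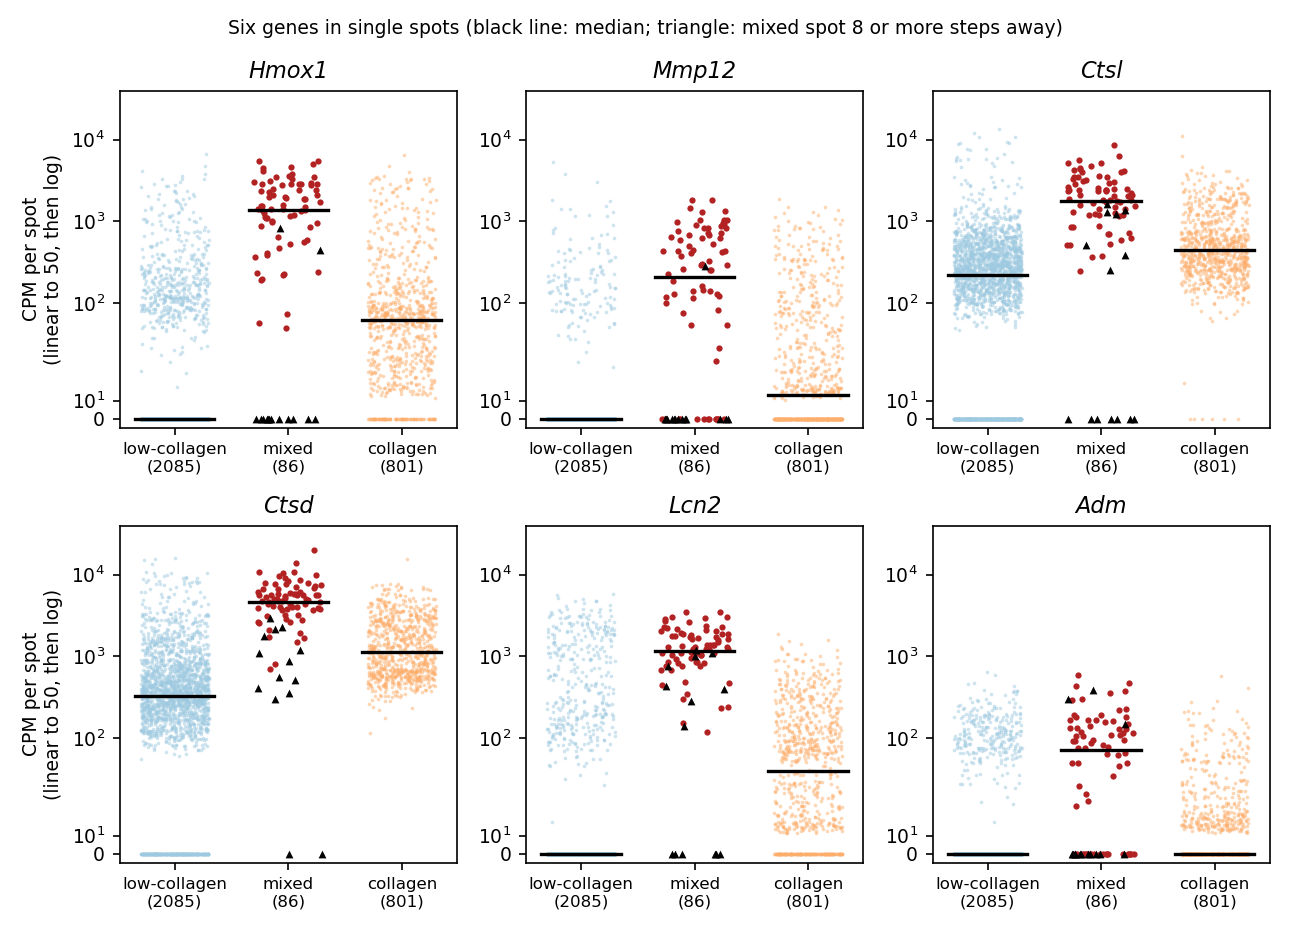
CPM per spot (y, linear to 50 and logarithmic above) of Hmox1, Mmp12, Ctsl, Ctsd, Lcn2 and Adm in 2085 low-collagen, 86 mixed and 801 collagen-end spots. Points are spots, black lines are medians, and triangles are the mixed spots 8 or more steps away. The median of the mixed spots is above that of either end for each gene, and many single spots of the ends overlap the mixed range.

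Both ends held wide areas of tissue, so each ratio was also taken against end spots close to the border, which gave smaller ratios. Against the 243 collagen-end and 410 low-collagen spots within 5 steps of a mixed spot, 91 genes (1.29%) were above both ends and 10 (0.142%) below, and 77 of the 91 were among the 245, which is 31.4% of these. Hmox1 was at 549 CPM in the nearby collagen-end spots and 441 CPM in the nearby low-collagen spots, and its ratio fell from 9.17 to 3.13 (2.99 to 3.28). Of the 20 genes with the largest ratios, 18 were above both nearby ends, with ratios that ran from 1.17 to 4.72 over the 20. Lcn2 (1.33) and Tgm1 (1.17) were not. Lcn2 was at 1006 CPM in the nearby low-collagen spots against 282 CPM over all low-collagen spots, so its high level reached past the band into the low-collagen tissue.

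The same genes were high in 2 neighbouring classes of spots that the rule left out. In the 43 spots that met the collagen and neural limits but had at least 1000 CPM of Arg1, 183 of the 245 genes were at least 1.5-fold over the higher end, against 5.21% of all genes tested, and 152 were higher still than in the mixed spots. Hmox1 was at 3911 CPM there and Mmp12 at 1095 CPM. Of the 20 genes with the largest ratios, 16 were higher in the Arg1-high spots than in the mixed spots. In the 142 spots at 1000 to 2000 CPM of collagen, 154 of the 245 genes were at least 1.5-fold over the higher end, against 2.84% of all genes tested, and 55 were higher than in the mixed spots. Lcn2, at 1851 CPM there, was among these 55. These spots come from the same section and partly touch the mixed spots. They were also set against the same higher end by which the 245 genes were chosen. A low level at that end carries over, so the shares over all genes are no independent comparison.

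Genes of heme and iron handling had the largest median ratio of the lists described here when all end spots were used. The median log2 ratio over the higher end was 0.96 for its 8 tested members, against −0.29 over all genes tested, and 5 were above both ends. Fth1, the ferritin heavy chain that stores iron, ran from 2548 to 31044 CPM per spot with a median of 12166 CPM, and summed to 11843 CPM, 1.84 times the higher end (1.81 to 1.87) and 1.54 times the higher nearby end. Slc40a1, the iron exporter, was at 46.0 CPM, 3.03 times the higher end. Trf, the iron carrier made by oligodendrocytes in the brain, was at 2385 CPM, 2.05 times the higher end but 1.07 times the nearby low-collagen level. Hmox1, Fth1 and Slc40a1 were the members above both nearby ends, where the share over all genes tested was 1.29%. The median log2 ratio of the list over the higher nearby end was 0.43, below those of the stress (0.64) and sprouting vessel (0.52) lists. The 5 measured erythrocyte genes summed to 67.7 CPM in the mixed spots, 9.46 CPM at the collagen end and 30.0 CPM at the low-collagen end, with no member at 50 UMIs, and their part in the Hmox1 level was not tested.

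Lysosomal and lipid-handling genes of phagocytes were abundant in the mixed spots. Summed, 15 genes of lipid-laden macrophages reached 31641 CPM in the mixed spots, 21055 CPM at the collagen end and 6276 CPM at the low-collagen end, and 8 of the 15 were above both ends. Per mixed spot the sum ran from 3173 to 65765 CPM with a median of 29926 CPM, and it was over the higher end in 59 of 86 spots. Ctsd, a lysosomal protease, ran from 0 to 20189 CPM per spot with a median of 4604 CPM and summed to 5182 CPM, 3.17 times the higher end (3.10 to 3.25). Fabp5, a fatty acid carrier, was at 1140.3 CPM (3.06 times the higher end), Gpnmb, a lysosomal glycoprotein, at 1239 CPM (2.47 times) and Trem2, the lipid-sensing receptor of microglia, at 307 CPM (1.64 times). Apoe and Spp1, the apolipoprotein and osteopontin, were close to the collagen end, at 1.09 times its level for each.

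Against nearby spots, 3 of these 15 genes (Lpl, Cst7 and Ctsd) were above both ends. The share over all genes tested was 1.29% there, in place of 3.48% against all end spots. The sum in the nearby collagen-end spots was 30307 CPM, close to the mixed level, so for most of the list the high level was shared by the collagen-rich tissue next to the border. The general macrophage markers behaved likewise. Of 8 tested, Cd68, F13a1, Cd14 and Pf4 were above both ends, and none was above both nearby ends or under TMM scaling. Over all genes tested, these last 2 shares were 1.29% and 2.08%. Of 9 homeostatic microglia genes, 4 were above both ends. P2ry12, the purinergic receptor that resting microglia lose on activation, was at 50.2 CPM in the mixed spots and 47.2 CPM at the low-collagen end.

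At the fitted share of 54.6%, MHC class II genes went the other way, while MHC class I genes lay closer to the mixture. All 8 MHC class II genes were below the collagen end, 7 of them below the mixture, and they summed to 5592 CPM in the mixed spots against 24957 CPM at the collagen end and 800 CPM at the low-collagen end. The member not below the mixture was Ctss, a lysosomal protease that trims the invariant chain, at 1885 CPM against 2083 CPM. Cd74, the invariant chain, ran from 0 to 6671 CPM per spot with a median of 1575 CPM and summed to 1934 CPM, 0.278 times the mixture (0.267 to 0.288). No mixed spot reached the Cd74 level of the collagen end. The 10 MHC class I genes summed to 7347 CPM against 13031 CPM at the collagen end and 1311 CPM at the low-collagen end. Of these, 1 was below the mixture and none above it. The median log2 ratio to the mixture was −0.28 for class I and −1.28 for class II. The calls below the mixture rest on the fitted share of 54.6%. The share of 12.7% from Col1a1 and Col3a1 would set a lower expected level, since both lists summed highest at the collagen end. Both sums would lie above that level, so the direction against the mixture depended on the share. The rule's cap on these collagens could also hold down genes that vary with them. The nearby collagen-end spots had 13693 CPM of MHC class II, less than the whole collagen end. Rsad2, an antiviral enzyme, was the single interferon response gene of 15 above both ends, at 91.4 CPM and 3.03 times the higher end (2.51 to 3.63).

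Hypoxia and vessel genes were above both ends in part, at low counts. Of 11 hypoxia and glycolysis genes, 6 were above both ends and 10 above the mixture, with a median log2 ratio over the higher end of 0.62. Against nearby ends, 2 of the 11 (Bnip3 and Adm) were above both, and with TMM scaling 4 were. Over all genes tested, these shares were 1.29% and 2.08%. Adm ran from 0 to 589 CPM per mixed spot with a median of 71.1 CPM and summed to 99.7 CPM against 13.8 and 18.3 CPM, and its ratio of 5.46 (4.46 to 6.65) was 3.17 against nearby ends. Bnip3, a mitophagy receptor, was at 81.6 CPM (1.84 times the higher end), and Car9, a carbonic anhydrase induced by low oxygen, at 34.9 CPM (2.46 times, and 1.35 times the higher nearby end). Vegfa, the main vessel growth factor, ran from 0 to 1622 CPM per spot with a median of 103 CPM and summed to 193 CPM, 2.12 times the higher end and 2.01 times the higher nearby end. Angpt2, Vegfa and Mcam were the members of 8 sprouting vessel genes that were above both nearby ends. Of 7 endothelial genes, 3 were above both ends, with Cldn5, a tight junction protein, at 1.75 times the higher end, and none against nearby ends or under TMM scaling.

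**Figure D4:**
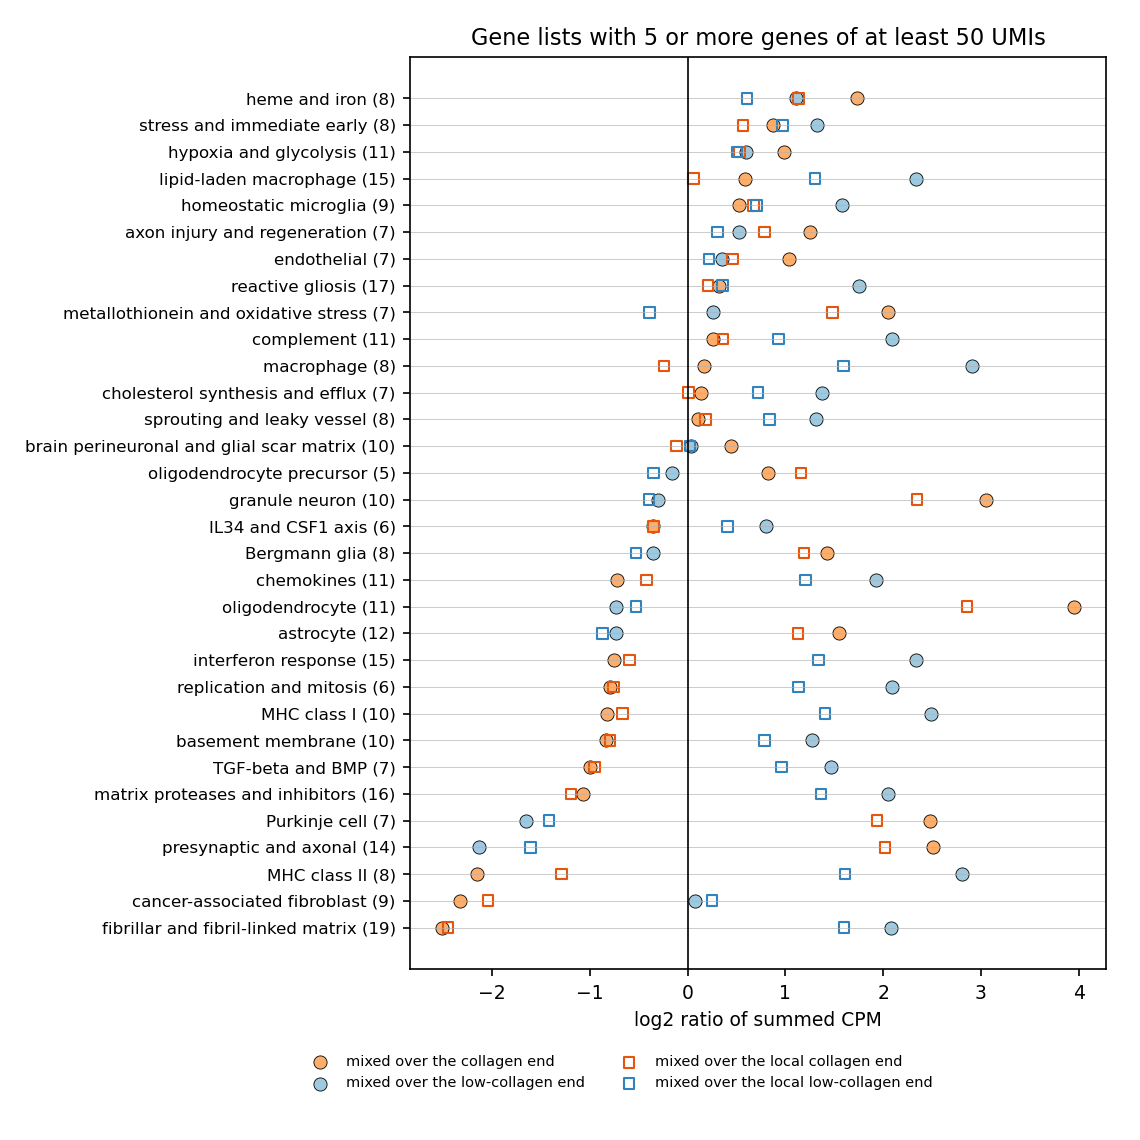
log2 ratio of the summed CPM of each gene list (y, with the number of its genes of at least 50 UMIs) in the mixed spots over the collagen end (orange) and the low-collagen end (blue), for all end spots (circles) and for those within 5 steps of a mixed spot (squares). Heme and iron, stress, hypoxia and microglia lists lie right of 0 against every end, fibrillar matrix and MHC class II lie left of 0 against the collagen end, and presynaptic genes lie left of 0 against the low-collagen end.

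Stress and immediate early genes were above both ends with either choice of end spots. Of 8 tested, 5 were above both ends, 5 above both nearby ends and 3 above both ends with TMM scaling. Over all genes tested, these shares were 3.48%, 1.29% and 2.08%. Fos, Atf3, Hspa1a and Hspa1b were called with both choices of end spots. Hspa1a, a heat-inducible chaperone, ran from 0 to 775 CPM per spot with a median of 0 CPM and summed to 61.4 CPM against 5.81 and 8.23 CPM. Its near-identical copy Hspa1b was at 69.7 CPM, 3.37 times the higher end (2.71 to 4.15), and probes may not fully separate the pair. Hspa1a had a UMI in 33 of the 86 mixed spots, each of which was then over the higher end.

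Promoter sequence was looked at for the 20 genes with the largest ratios, of which 14 have an entry among the RefSeq promoters (build GRCm38.p6, 300 bases around the gene start), and Hmox1 is not among these. The letters GAANNTTC, the core of the heat shock element, occur in the windows of Hspa1a and Cst7. The 250 bases upstream of the start are shown for both, on the gene's strand, with the matches in capitals, 104 and 76 bases before the start. Hspa1a lies on the minus strand and Cst7 on the plus strand.
Hspa1a chr17:34972157-34972406: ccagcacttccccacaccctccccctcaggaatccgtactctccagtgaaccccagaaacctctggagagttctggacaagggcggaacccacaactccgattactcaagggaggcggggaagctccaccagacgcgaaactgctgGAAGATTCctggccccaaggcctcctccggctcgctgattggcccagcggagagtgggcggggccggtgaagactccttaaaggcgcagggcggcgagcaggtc
Cst7 chr2:150570165-150570414: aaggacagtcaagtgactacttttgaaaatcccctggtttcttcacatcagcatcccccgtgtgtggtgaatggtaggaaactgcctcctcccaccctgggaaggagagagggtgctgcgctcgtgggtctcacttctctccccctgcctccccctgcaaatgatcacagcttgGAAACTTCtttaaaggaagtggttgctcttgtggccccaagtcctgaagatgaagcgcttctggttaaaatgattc
These letters occur, on either strand, in 5.52% of the promoters of genes above both ends, 5.12% of those of all genes tested and 7.95% of all 27025 promoters. TGANTCA, the AP-1 site, is held by 9.94% of the promoters of genes above both ends, 4.79% of those tested and 7.93% of all. ACGTG, the core of the hypoxia response element, is held by 24.9%, 26.7% and 19.7%. The matches are a description of letters and no measure of binding.

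Astrocyte and gliosis genes were divided. Of 17 reactive gliosis genes, 8 were above both ends, and of 12 general astrocyte genes Gfap alone was. Against nearby ends, 1 of the 17 was above both (Ptx3, not among the 8), where the share over all genes tested was 1.29%. The gliosis list is not of astrocytes alone, since it shares Cd14 with the macrophage list. It summed to 9568 CPM in the mixed spots, 7633 CPM at the collagen end and 2848 CPM at the low-collagen end. Gfap, the intermediate filament that reactive astrocytes raise, ran from 590 to 14475 CPM per spot with a median of 1890 CPM and summed to 2525 CPM, 1.91 times the higher end (1.84 to 1.97). Against nearby spots its ratio was 0.81 (0.783 to 0.842), since nearby low-collagen spots held 3108 CPM. Serpina3n, a protease inhibitor of reactive astrocytes, had a ratio of 2.64 over all ends and 0.895 over nearby ends. Gfap and Serpina3n were therefore higher in the nearby low-collagen spots than in the band. Mt1, a metallothionein, was at 6926 CPM in the mixed spots, 4999 CPM at the low-collagen end and 8372 CPM in nearby low-collagen spots.

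Neural genes in the mixed spots depended on the cell type. Of 14 presynaptic and axonal genes, 10 were below the mixture and none above it, and the 16 measured genes of the list summed to 2094 CPM against 9220.4 CPM at the low-collagen end. Stmn3, a neuronal microtubule regulator, ran from 0 to 2014 CPM per spot with a median of 220.5 CPM, and summed to 249.7 CPM against 1174 CPM at the low-collagen end. Nefl, the neurofilament light chain, was at 154 CPM against 1482 CPM, 0.227 times the mixture (0.198 to 0.259). Granule neuron genes stood higher, with 7 of 10 above the mixture and none below, and the 11 measured genes summed to 1198 CPM against 1476 CPM at the low-collagen end. These ratios depended on the makeup of that end. With it split by neural composition, the ratio over the higher end went from 1.19 to 0.396 for Neurod1 and from 1.603 to 0.631 for Cadps2, the member above both ends, and from 0.88 to 0.322 for Zic1. Of 7 Purkinje cell genes, 3 were below the mixture and none above.

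Myelin genes fell between these. The 12 measured oligodendrocyte genes summed to 5149 CPM in the mixed spots, 332 CPM at the collagen end and 8566 CPM at the low-collagen end, and of the 11 with at least 50 UMIs, 3 were above the mixture and none below. Mobp, a structural protein of compact myelin, was at 1193 CPM, with an interval of the ratio to the mixture of 0.953 to 1.05. Cldn11, the tight junction protein of myelin, was the member above both ends, at 554 CPM and 1.62 times the low-collagen level, and 1.01 times the nearby low-collagen level. With the low-collagen end split by its neural composition, the log2 ratio of Cldn11 over the higher end was −0.10 in place of a positive value.

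The 15 epithelial tumor genes summed to 92.8 CPM in the mixed spots, 139 CPM at the collagen end and 72.7 CPM at the low-collagen end, and none had 50 UMIs in the mixed spots. The probe set covers mouse genes, and the human HER2 transgene is not among them. T and NK cell genes summed to 260.2 CPM in the mixed spots, 367 CPM at the collagen end and 54.0 CPM at the low-collagen end. B and plasma cell genes summed to 354, 1325 and 165 CPM. Only 2 T and NK cell genes and 3 B and plasma cell genes had at least 50 UMIs, and none was above both ends. The share over all genes tested was 3.48%, so no call among so few is not read as a result. The IL34 and CSF1 axis recruits and maintains macrophages and gives the series its title. Its list here held 8 genes, among them the receptor genes Il4ra, Csf2ra and Csf2rb, which lie outside that axis. None of the 6 tested genes of the list was above both ends. At the share of 3.48% over all genes, no call among 6 is not read as a result either. Csf1r, the receptor of both ligands, ran from 0 to 637 CPM per spot with a median of 213 CPM and summed to 253 CPM against 396 CPM at the collagen end and 104 CPM at the low-collagen end, 0.961 times the mixture (0.865 to 1.07). Il34 was at 18.1 CPM in the mixed spots, 65.9 CPM at the collagen end and 25.8 CPM at the low-collagen end. It was under the minimum of 50 UMIs in the mixed spots, so it was not among the 6 tested genes and no call was made.

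Within the mixed spots, the leading genes changed with collagen in different ways. Mmp12 was at 296 CPM in the 50 spots at 2000 to 4000 CPM of collagen and 566 CPM in the 23 spots at 4000 to 6000 CPM. Hmox1 was at 1722 and 1990.2 CPM in these bins. Lcn2 went down, at 1678 and 1097 CPM, and Gfap at 2935 and 2182 CPM. At 1000 to 2000 CPM of collagen, with the same neural and Arg1 limits, Hmox1 was at 1298 CPM, Lcn2 at 1989.96 CPM and Gfap at 4149 CPM in 126 spots, so Lcn2 and Gfap were highest at the low-collagen side of the band. The bins at 6000 to 8000 and 8000 to 10000 CPM held 8 and 5 spots, and no order is read from them.

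**Figure D5:**
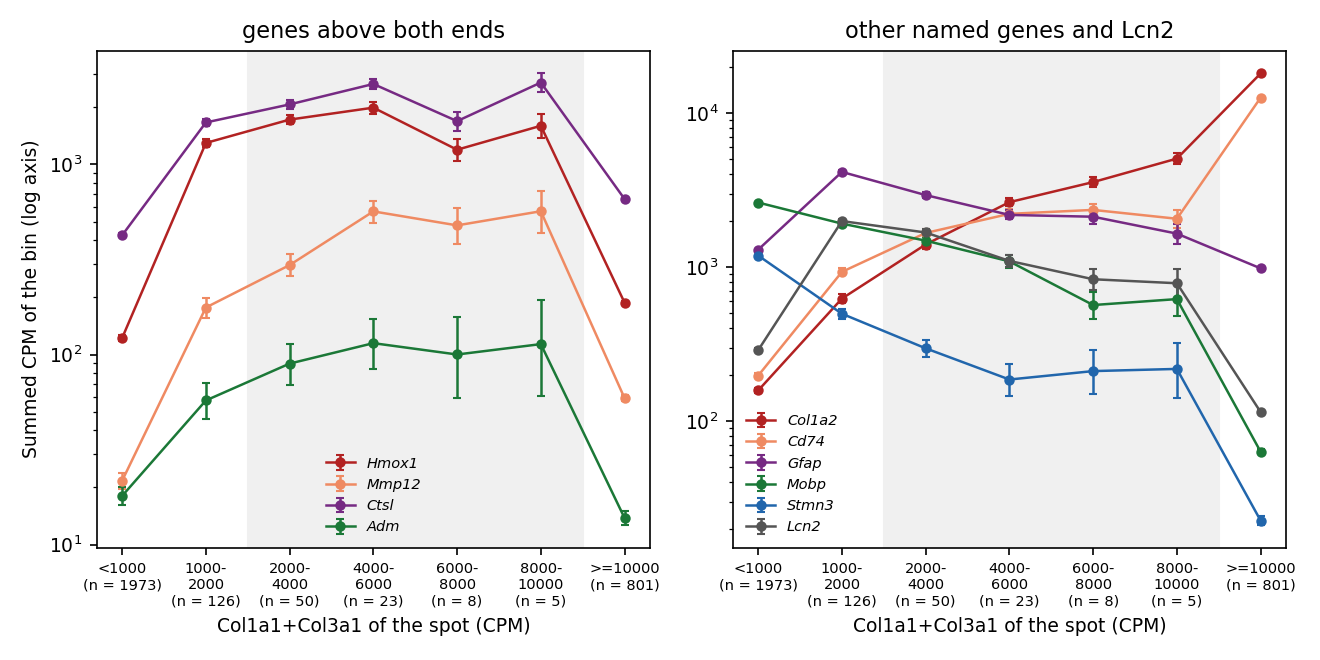
Summed CPM (y, log axis) of named genes in spots grouped by their Col1a1 and Col3a1 level (x, CPM, with the number of spots), with exact 95% Poisson intervals as bars. The shaded bins are the mixed spots. Hmox1, Mmp12, Ctsl and Adm are higher in every shaded bin than in the outermost bins, while Col1a2 and Cd74 are highest at the collagen end and Mobp and Stmn3 at the low-collagen end.

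Distance from the collagen end separated the same genes. Mmp12 was at 586 CPM in the 25 spots that touched it, 457 CPM at 2 steps, 228 CPM at 3 steps and 48.6 CPM at 4 to 5 steps. Adm was at 154, 82.6 and 56.9 CPM at steps 1, 2 and 3. Hmox1 held its level, at 1733, 1826, 1869 and 1653 CPM over the same distances. Lcn2 ran the other way, at 1068, 1398, 1659 and 2058 CPM. The lipid-laden macrophage list summed to 36281 CPM at step 1, 35105 CPM at step 2 and 26189 CPM at step 3, and the general astrocyte list was at 5018, 5003 and 4963 CPM at these steps and 10589 CPM at 4 to 5 steps. Steps 3 and 4 to 5 rest on 11 and 8 spots.

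Spots also differed among themselves along the band. Over the 72 spots near the collagen end, which share 1 section and differ in depth, Spearman correlations with the summed lipid-laden macrophage level were 0.81 for Mmp12 and 0.38 for Hmox1. Lcn2 correlated at 0.70 with the summed oligodendrocyte level. Mmp12 thus rose with the phagocyte genes, while Hmox1 followed that list less closely. Mmp12 correlated about as strongly with the fitted share of the collagen end, at 0.79, against 0.27 for Hmox1. With the Col1a1 and Col3a1 level Mmp12 correlated at 0.18. Whether Mmp12 followed phagocyte genes apart from the fitted share was not tested. Correlations with other lists were calculated and are not given here.

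The 14 distant spots held some of the leading genes at low levels and others not. Mmp12, Ccl6 and Cst7 were each at 18.4 CPM in them, on a single UMI over all 14 spots. Lcn2 was at 406 CPM on 22 UMIs, against 282 CPM at the higher end, and Adm at 55.3 CPM on 3 UMIs, against 18.3 CPM. Mbp was at 28353, 29400 and 17143 CPM in 3 of their connected groups, and 1 spot held 18414 CPM of Ttr, the thyroxine carrier of the choroid plexus. Their collagen level rested on 6 to 21 UMIs per spot. Without them, 263 genes were above both ends.

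The genes below both ends were few and mostly of low count. Edil3, an extracellular matrix protein, was at 73.9 CPM in the mixed spots, 199 CPM at the collagen end and 208 CPM at the low-collagen end, 0.371 times the lower end (0.303 to 0.449). Tsc22d3, a glucocorticoid-induced leucine zipper gene, was at 173 CPM against 427 and 320.5 CPM, 0.54 times the lower end. Cdk14, a cyclin-dependent kinase, Dbp, a clock-controlled transcription factor, and 1 of the rows named Pakap were the others among the 5 lowest, at 0.415, 0.556 and 0.534 times the lower end. Dbp and the Pakap row kept the call in 8 of 13 settings, and Edil3, Cdk14 and Tsc22d3 in 12. Edil3 ran from 0.338 to 0.90 times the lower end over these settings. With the low-collagen end split by neural composition, 5 genes were below both ends, and with TMM scaling 95.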

How the data were processed

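The assay was Visium CytAssist on sections of fixed, embedded mouse tissue. The authors deposited UMI counts per gene and spot with spot positions, made with Space Ranger 2.1.1 on build mm10 according to the submitters' processing notes, and these counts were used as deposited. Section 1 held 63986887 UMIs and section 2 held 71878333, and 3096 barcodes occurred in both, as positions of the same array design. Raw counts were summed over the spots of a class and divided by the summed UMIs. Ratios over an end carry exact conditional 95% intervals, and single levels exact Poisson intervals. Ratios to the mixture carry the Poisson interval of the mixed count divided by the fitted level, without error of the ends or of the share. The interval of the share is a 95% profile likelihood interval. With 1 section there is no test and no p-value. The mixture was a Poisson likelihood fit of 1 share of UMIs over all genes outside the rule. The calculation was run on simulated Poisson counts drawn from these 2 end profiles at a single share. That simulation held no variation among spots or within the ends, so it cannot show calls that arise from such variation. A gene was called with at least 50 UMIs in the mixed spots, a 1.5-fold difference and an interval that excludes 1. Doublets were not called, since a spot is a region.

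The spots, the 45 gene lists, which overlap in part, and the tests were chosen with earlier results of these data known. Named genes were the rule genes, the 20 highest ratios above both ends, the 5 lowest below both, up to 4 members of each list with the most UMIs and the IL34 and CSF1 axis. Members named beyond these 4, the genes of the distant groups and those that lost their call were chosen after their values were seen. Some genes that the rule names are not reported here. Alternatives covered scaling, summing, the choice of end spots, the limits of the rule, the gene minimum, the fold and the estimate of the share. Promoter sequences are from RefSeq, build GRCm38.p6. Tools were Python 3.11.15 with numpy 2.4.6, scipy 1.17.1, pandas 2.3.3 and matplotlib 3.10.9, and R 4.3.3 with edgeR 4.0.16 for TMM factors only.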

Additional observations from a re-analysis of the deposited data

How the results depend on the processing

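No paired analysis was possible because the comparison is between spots of 1 section and comes from no test. Of 245 genes above both ends, 146 remained with TMM scaling. Nearby end spots gave 91 genes, of which 77 were among the 245. Without a gene minimum the count was 722 of 19009 genes, and with a minimum of 100 UMIs it was 159 of 3653. A fold lower than 1.5 gave 526 and a fold of 2 gave 101. In the other settings it was 176 to 327, the highest without an Arg1 limit. Above the mixture, 696 genes became 413 with TMM scaling, 369 with nearby ends, 1963 without a gene minimum, 412 with a minimum of 100 UMIs and 1404 with the share taken from Col1a1 and Col3a1. The mixing share of 54.6% became 49.3% with TMM scaling, 56.1% without the rule, collagen and hemoglobin genes in the totals, 51.6% with the mean of spot CPM and 53.7% by least squares on square roots. Other end spots gave 55.0% (low-collagen spots with neural genes and low Arg1), 53.0% (collagen-end spots with few neural genes and low Arg1), 47.7% (nearby ends) and 52.0% (low-collagen end split by neural composition). Other limits of the rule gave 57.6% (collagen of 3000 to 8000 CPM), 60.9% (no Arg1 limit), 57.2% (neural level of at least 2000 CPM), 55.7% (at least 5000 UMIs), 56.6% (mixed spots near the collagen end) and 47.8% (without the connected group of 17 spots). Col1a1 and Col3a1 gave 12.7%. The log2 ratio over the higher end turned negative with nearby ends for Igfbp2 (−0.0703), Gfap (−0.30), Serpina3n (−0.16), Hspb1 (−0.27) and C4b (−0.22), and with the split low-collagen end for Cldn11 (−0.10), Cadps2 (−0.66) and Npy (−0.51). The cause of these changes was not tested. Of the 20 genes with the largest ratios, 16 were above both ends in all 13 settings run on single genes. These 20 were chosen by their ratios in the same data. TMM scaling and changed totals multiply every ratio over an end by a constant, and other settings kept most of the same spots. The count of 16 is therefore no independent check. The mean CPM minimum, the near spots alone and the count over single spots were chosen after seeing the data. The comparison was not run in section 2, where the rule found 2 spots and no collagen end. Genes of low count, such as Angpt2 and Car9, have wide intervals at this depth.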
